A study of Drosophila melanogaster with 12 samples.

Results

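Convergent pairs overlapping at their ends are pairs of transcription units, one on each strand, that run towards each other and share the bases at their 3′ ends. A pair was taken wherever a plus-strand unit started before a minus-strand unit on the same chromosome, ended inside it and did not reach its far end, so that neither unit was nested in the other. The rule used coordinates alone, on the dm6 build, and left out the mitochondrial genome. It found 1498 pairs made of 2996 units, which was 18.8% of the 15960 units on chromosomes X, 2, 3, 4 and Y. The whole annotation held 15991 units. Since units of the same strand never overlapped, a unit could be in only 1 pair.

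The units were drawn up for an mNET-seq study, an assay that sequences the nascent RNA bound to immunoprecipitated RNA polymerase II, in S2 cells, a male Drosophila melanogaster line grown in culture. Total polymerase (Total) and polymerase with a phosphorylated Ser5 in its C-terminal domain (Ser5p) were each profiled after control RNAi (GST in the library titles), MSL1 RNAi or MOF RNAi, in 6 groups of 2 libraries. MSL1 and MOF belong to the male-specific lethal (MSL) complex, which raises transcription of the single male X. All groups share the S2 background and an RNAi treatment; read from the design text, RNAi ran 2 days for control and MSL1 and 4 days for MOF, so target and duration differ together in the MOF groups. The annotation held a value for none of the 12 libraries. No response of any pair to RNAi, no depth and no replicate error is therefore given, and everything below describes annotated coordinates. Lines of an annotation are not samples, so counts, medians and ranges stand without tests, and a difference between groups of pairs is a description only.

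At the end of a gene the nascent RNA is cleaved and polyadenylated while the polymerase continues some way before it terminates. Where neighbouring genes converge, each polymerase can therefore run into the 3′ region of the other gene. The finished RNAs are complementary where exons of both genes lie opposite each other. In Drosophila such complementary 3′ ends are a known source of endogenous small interfering RNAs, which Dicer-2 cuts from double-stranded RNA and which are loaded into Argonaute 2. Units are whole spans from start to end, and exons were not examined here. An overlap length below is therefore not a length of complementary finished RNA. For a nascent RNA assay the shared bases are also the place where the strand of a read decides which gene it belongs to.

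Convergent overlap was common next to the other ways in which units of opposite strands can overlap. Of 3685 overlapping pairs of opposite strands, 1498 (40.7%) were convergent, 419 overlapped head to head at their starts and 1768 had a unit nested in the other. Of the 6254 units with any overlap, 47.9% were in a convergent pair. The pair units were seldom entangled further: 196 of them (6.54%) also took part in a head-to-head overlap, beside 4.95% of the other 12964 units, and 231 (7.71%) held a nested unit, beside 6.99% of the others.

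Most overlaps were short. The median was 83 bp, the quartiles were 34 and 218.5 bp, and the range ran from 1 to 75482 bp. An overlap of at most 100 bp was found in 852 pairs, and 497 of these lay between 31 and 100 bp. A further 354 pairs overlapped by more than 100 and up to 300 bp, 199 by more than 300 and up to 1000 bp, and 93 by more than 1000 bp. The long tail carried most of the shared sequence. Of the 695535 bases in overlaps, 70.9% lay in the pairs over 1000 bp, and 47.9% lay in the 12 largest overlaps alone.

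**Figure D1:**
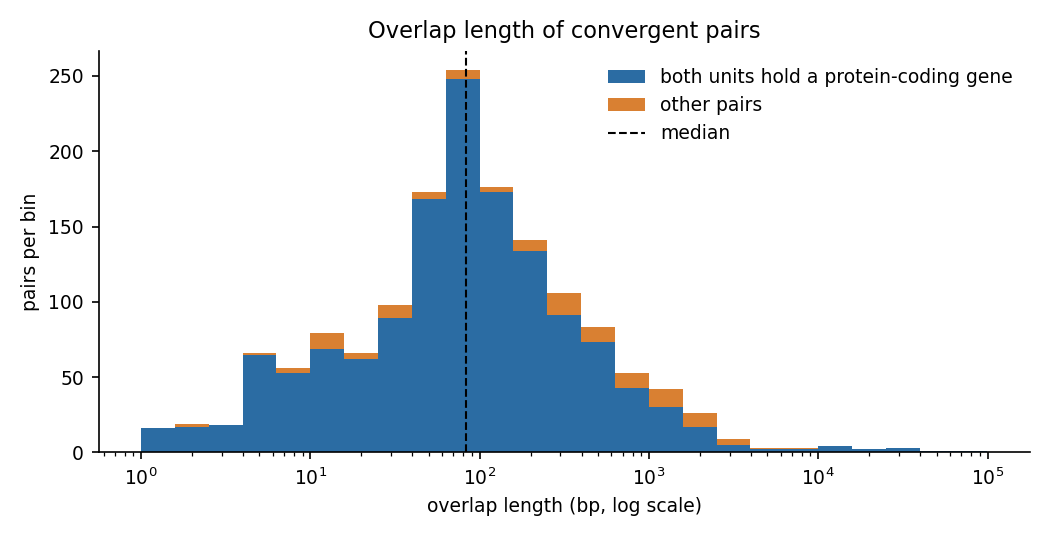
Overlap length of the 1498 convergent pairs on a log axis (bp), with the number of pairs per bin; blue marks the 1386 pairs in which both units hold a protein-coding gene, orange the other pairs, and the dashed line the median of 83 bp. Most pairs lie between 10 and 1000 bp, and a thin tail reaches 75482 bp.

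Relative to the units themselves the shared stretch was usually small. It covered a median of 5.93% of the shorter unit and 2.46% of the longer one. In 503 pairs it exceeded 10% of the shorter unit, in 105 pairs 50% and in 20 pairs 90%. Over all pair units together, 8.82% of the unit bases lay in an overlap. In any coverage track summed over both strands, signal on these bases would count for both units.

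The pairs are the overlapping side of a wider arrangement. Tail-to-tail neighbours, whose 3′ ends face each other with no unit between them, numbered 4016, of which the 1498 pairs (37.3%) overlapped and 2518 did not. The neighbours that did not overlap had a median gap of 252 bp. Facing ends lay close together on both sides of the threshold: 852 pairs overlapped by at most 100 bp and 811 neighbours were separated by at most 100 bp, together 41.4% of all tail-to-tail neighbours.

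The threshold itself passed through the densest part of this distribution. Overlaps of 1 to 13 bp were found in 241 pairs, or 18.5 pairs per bp of overlap, while overlaps of 14 to 26 bp were found in 85 pairs, or 6.54 per bp. These limits were set after the values had been seen. In 225 of the 241 pairs both units held a protein-coding gene, beside 92.5% of all pairs. Across the threshold, 35 neighbours touched with a gap of 0 bp, and 151 had a gap of 1 to 13 bp, or 11.6 per bp.

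Just inside the threshold, 16 pairs shared exactly 1 base, all of them with a protein-coding gene in both units, as in 92.5% of all pairs. The end of CLIP-190, a microtubule-binding protein gene, and that of Rpb11, a polymerase II subunit gene, met in this way on 2L at 17409698. So did the ends of bwa and pr, also on 2L, at 20073719, and on 2R those of Rab4 and Dcr-2, of CG10384 and CG45062, of CG12107 and the splicing factor gene U2A, and of CG13747 and CG8170. Just outside it, papi ended at 2225544 on 2L and CG15387 at 2225545. The units of gammaTub23C and CG9641, of CG7231 and pes, and of yip2 and CG5885, all on 2L, also ended on adjacent bases.

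**Figure D2:**
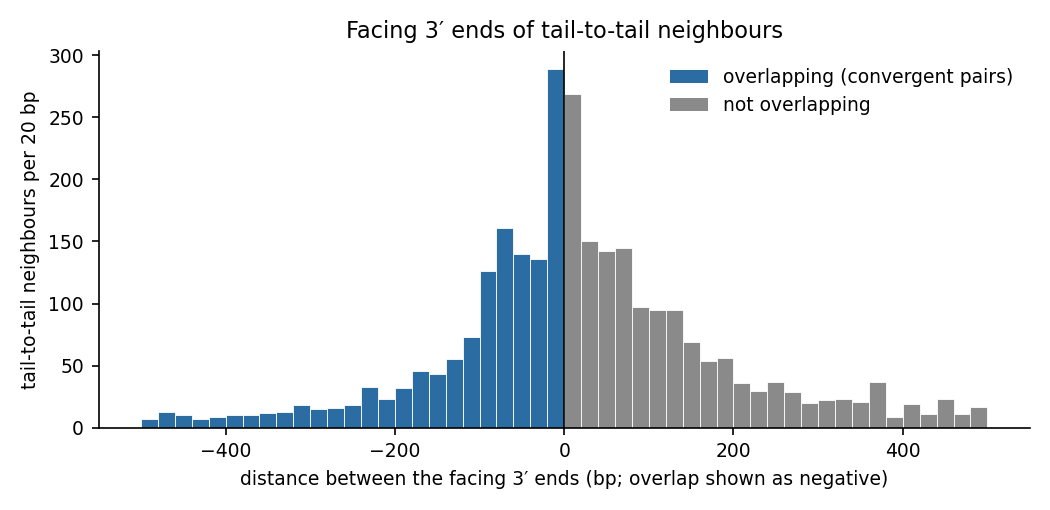
Number of tail-to-tail neighbours per 20 bp of the distance between their facing 3′ ends (bp), with overlaps as negative distances in blue and gaps in grey, from 500 bp of overlap to 500 bp of gap. The highest bars flank 0, with 289 neighbours overlapping by up to 20 bp and 269 separated by less than 20 bp.

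Protein-coding genes made up nearly all convergent pairs. Both units held a protein-coding gene in 1386 pairs (92.5%), 1 unit did in 93 pairs (6.21%) and neither did in 17 pairs, while 2 pairs had a unit whose genes were not matched to the RefSeq gene table. Of 13041 units with a protein-coding gene, 22.0% were in a pair, beside 4.38% of 2900 non-coding units. A pair by definition consists of tail-to-tail neighbours, and such a neighbour was present for 53.9% of the coding and 34.6% of the non-coding units. Among units that had such a neighbour, 40.8% of the coding and 12.7% of the non-coding ones overlapped it.

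Coding units in pairs resembled other coding units in size. Their median length was 2229 bp, beside 2573 bp for coding units with a tail-to-tail neighbour that they did not overlap and 2075 bp for those with no such neighbour. They carried a mean of 2.28 annotated transcripts, beside 2.62 for the coding units with a neighbour that they did not overlap. At the other end of the unit they differed more: 52.5% of coding pair units had a divergent neighbour, a unit on the other strand that starts within 1000 bp and runs the opposite way, beside 37.3% and 28.2% in the other sets of coding units. In 419 pairs (28.0%) both units had one.

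Overlap length varied with gene class. The median was 375 bp in the 93 mixed pairs, 44 bp in the 17 pairs without a protein-coding gene and 81 bp in the 1386 coding pairs. Antisense RNA genes, which are annotated for lying opposite another gene, were named in 72 pairs, with a median overlap of 686 bp and 28 overlaps above 1000 bp. A unit with antisense RNA alone faced a coding unit in 58 pairs. Long non-coding RNA genes were named in 66 pairs (median 198 bp) and pseudogenes in 19 (median 52 bp). Small RNA genes entered pairs as parts of longer units: snoRNA genes in 26 pairs, miRNA genes in 24 and tRNA genes in 6. Of all annotated genes of each type, pair units held 15.1% for antisense RNA, 4.05% for long non-coding RNA and 8.45% for pseudogenes. The shares were 22.5% for snoRNA, 12.5% for miRNA and 3.79% for tRNA genes, beside 22.0% for protein-coding genes.

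Among mixed pairs the largest overlap joined CG14372 to the unit of CR17025 and mir-252 on 3R, where 8674 bp from 13455511 to 13464184 were shared. On 2R, 4479 bp of the antisense RNA gene CR44069, or 86.9% of it, lay opposite the end of the unit of Mmp2, a matrix metalloproteinase gene that also contains mir-307a. CR46089 shared 3575 bp with the unit of CG17119 and sav, a Hippo pathway scaffold gene, on 3R. CG2543 and CR45621 shared 3423 bp on X. Without a protein-coding gene, the largest overlap was 2674 bp on 3L, between the unit of CR45388, CR45387 and mir-315 and the antisense RNA gene CR45912. Below it came CR46336 and CR46337 with 1692 bp, CR45310 and CR45311 with 1101 bp, and CR45316 and CR45317 with 841 bp, all long non-coding RNA genes on 2R.

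In a few pairs the units lay almost entirely opposite each other. The unit of Spt-I, a serine palmitoyltransferase subunit gene on 2R from 13168498 to 13170744, and the antisense RNA gene CR45142, from 13168500 to 13170745, shared 2245 bp. That was 99.9% of Spt-I and 100.0% of CR45142 after rounding, and the units stay a pair by the rule through 2 bases at the left end and 1 at the right. The overlap of CG2543 and CR45621 covered 93.4% and 93.2% of the units. On 3R, CG5500 and ro, a homeobox gene of the developing eye, shared 3689 bp, or 96.3% and 83.8%. This was the largest share of the longer unit among pairs of protein-coding genes. Next came CR45999 and CG9855 (1570 bp, 78.5% and 82.8%), lectin-28C and TwdlE (2164 bp, 71.1% and 75.1%), a lectin gene opposite a cuticle protein gene, and CG34162 and CR42743 (1791 bp, 92.5% and 69.4%).

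Most of the largest overlaps lay on X. Of the 12 largest, 8 lay on X, including the 5 largest, beside 13.5% of all pairs. A unit that holds several genes was involved in 7 of the 12, beside 15.4% of all pairs, and all 7 lay on X. Among pairs of single protein-coding genes, the largest overlap was 13071 bp on X, 17619 bp on 2L and 16922 bp on 3R. At the top of the 12, the unit of CG9650 (7137723 to 7241932) ran for 75482 bp into a unit of 8 genes (7166451 to 7405797). That unit contains Atg5, an autophagy conjugation gene, and unc-119, and its end was that of the long non-coding RNA gene CR44357. The unit of rdgA, the diacylglycerol kinase gene of photoreceptors (8907068 to 9029476), shared 56569 bp with the unit of CG10962, CR43836, CG12662 and mir-31b (8972908 to 9048991). This was 46.2% of the first and 74.4% of the second.

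Also on X, the units of CG3777 and CG32816 shared 33929 bp. The unit of dnc, the cAMP phosphodiesterase gene dunce, shared 30435 bp with the unit of CR44886 and CG10793. The dnc overlap covered 18.2% of a 167328 bp unit but 86.8% of its partner. Further X pairs among the 12 were CR44779 with CG3655 (15826 bp), the 6-gene unit of Myc with that of DIP-alpha (15543 bp) and vnd, a neural homeobox gene, with CG13366 (13071 bp). At the end of the Myc unit lay CR44999 and not Myc itself.

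Outside X, the largest overlap was that of nub, a POU transcription factor gene, and Ref2, an RNA export factor gene, with 17619 bp on 2L from 12610517 to 12628135. It took up 43.5% of nub and 49.2% of Ref2. On 3R, msi, the musashi RNA-binding protein gene, covered 96.0% of ymp with 16922 bp. The haf and CG31935 units on 2L shared 13583 bp, although the end of the haf unit was not that of haf in the RefSeq gene table. The nudC and CG13024 units on 3L shared 9875 bp. Second on 3L was CG33158 with the unit of CG42514 and CG43373 (4723 bp). Second on 2R was pcs with CG7639 (3677 bp).

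**Figure D3:**
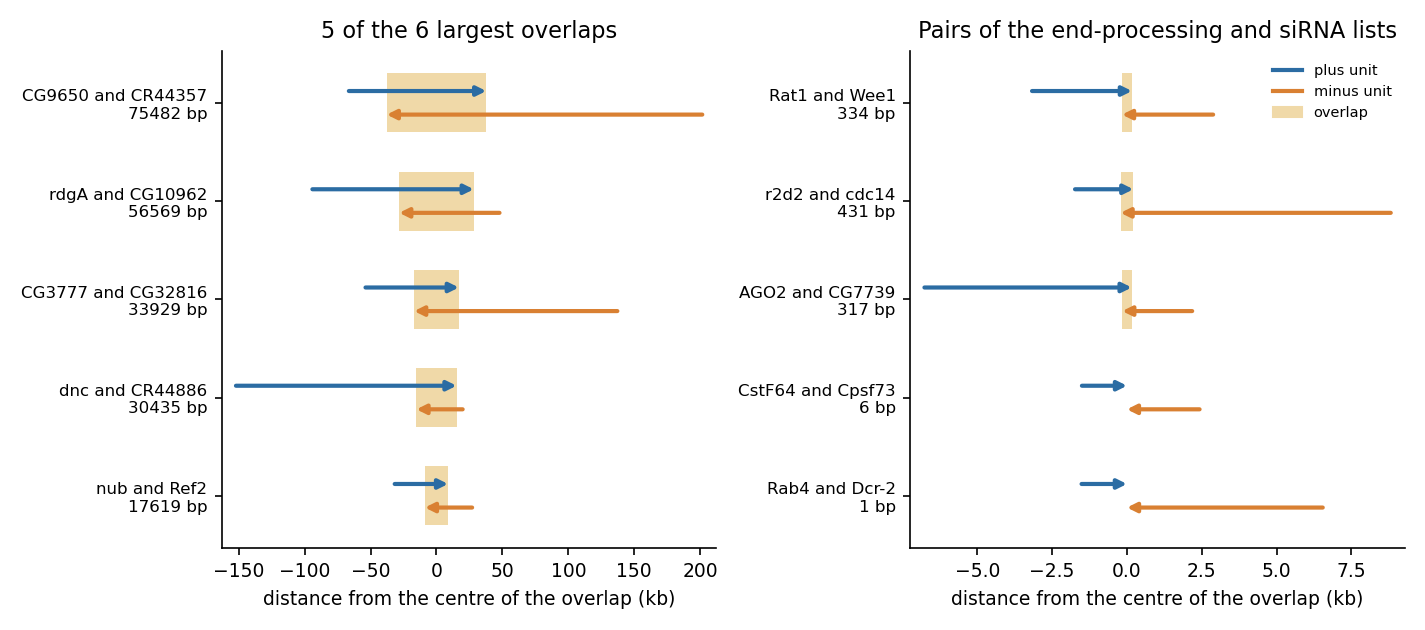
Positions of both units relative to the centre of their overlap (kb), with the plus unit in blue, the minus unit in orange, arrowheads at the 3′ ends, the overlap shaded and each unit named by its first listed gene; the left panel shows 5 of the 6 largest overlaps and the right panel 5 pairs of the end-processing and small interfering RNA lists. The shared stretch runs from 17619 to 75482 bp on the left and from 1 to 431 bp on the right, on different scales.

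Most pairs joined units of a single gene. Both units held a single gene in 1267 pairs (84.6%), with a median overlap of 80 bp, beside 121 bp in the 231 pairs with a multi-gene unit. Multi-gene units took part in 11.5% of the pairs that overlapped by 31 to 100 bp and in 12.5% to 16.1% of those in each shorter class. Above 100 bp, the share was 16.4% up to 300 bp, 18.1% up to 1000 bp and 25.6% up to 10000 bp. In 7 of the 11 pairs above that, a multi-gene unit took part. The genes that carry the overlapping ends were themselves convergent and not nested in the RefSeq table in 1492 pairs. They were nested in 2 pairs, and an end could not be assigned to a gene in 4. For pairs of single-gene units this outcome was nearly fixed beforehand, since 99.9% of the matched ones had the same overlap in that table. Overlap length also went with the number of annotated transcripts. Pairs with 2 transcripts in all had a median overlap of 63 bp (365 pairs), those with 3 to 5 had 87 bp (770), those with 6 to 10 had 103.5 bp (290) and those with more had 208 bp (73).

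By chromosome, the share of units in a pair was 16.8% on X (202 pairs), 17.5% on 2L (278), 21.2% on 2R (344), 17.8% on 3L (277) and 20.2% on 3R (384). X was thus the lowest of the 5 large arms, though within 1 percentage point of 2L and 3L. Among units with a protein-coding gene the order of X was the same, with 19.0% beside 20.6% to 24.8% on the autosomal arms. Of all tail-to-tail neighbours on X, 33.5% overlapped, and on the autosomal arms 34.4% to 41.9% did.

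Overlaps on X were longer than on the autosomal arms by their median, 110.5 bp against 70 to 87 bp. More than 100 bp were shared in 53.0% of X pairs and in 38.3% to 45.0% of pairs on each autosomal arm. With pairs of single protein-coding genes alone, the X median was 88 bp over 151 pairs and the medians of the autosomal arms were 64.5 to 82 bp. When only overlaps of at least 100 bp counted, the share of units in a pair on X was 8.92%, above the 6.93% to 8.87% of the autosomal arms, so the place of X in this order depended on the minimum overlap.

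Chromosome 4 had few pairs with long overlaps. Its 9 pairs, 16.5% of its units, overlapped by 90 to 3195 bp with a median of 685 bp. CG32850 and PMCA, the plasma membrane calcium pump gene, shared 3195 bp, and zfh2, a zinc finger homeobox gene, shared 2543 bp with the unit of Thd1. CG33941 and Asator shared 2068 bp, CG33521 and PIP4K 567 bp, sv, the fly Pax2 gene, and Cals 444 bp, and CG11155 and CG32017 90 bp. In the remaining 3 pairs an antisense RNA gene faced bip2 (1527 bp), CG11077 (685 bp, or 99.7% of it) or fuss (352 bp).

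The Y chromosome had 4 pairs, 7.14% of its units, and all joined annotated pseudogenes between 3164949 and 3242646. CR46172 with CR46173, CR46175 with CR46176 and CR46189 with CR46190 each shared 12 bp, and CR40601 with CR46182 shared 44 bp. The plus units of the first 3 measured 453, 453 and 454 bp, and the minus units of the first 2 both measured 690 bp. None of the 23 Y units with a protein-coding gene was in a pair.

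**Figure D4:**
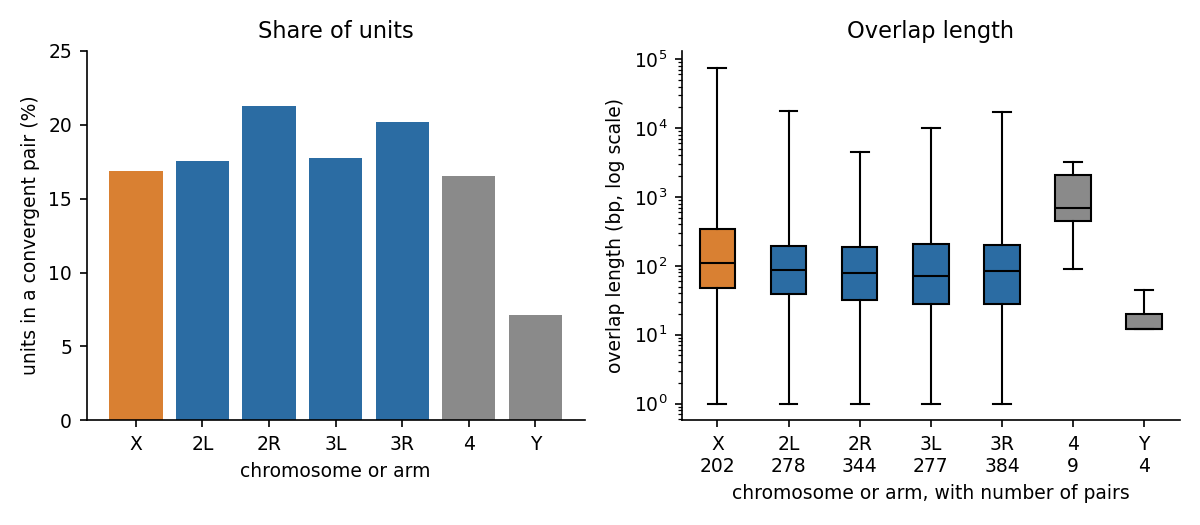
Left, share of units in a convergent pair (%) on each chromosome or arm; right, overlap length on a log axis (bp), with boxes for the quartiles, a line for the median, whiskers to the lowest and highest pair, and the number of pairs below each name. The share lies between 16.5% and 21.2% except on Y (7.14%), and the median overlap is highest on chromosome 4 (685 bp).

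Of the MSL complex, 2 of 7 genes (28.6%) were in a pair, beside 18.8% of all units and 22.0% of coding units. The unit of roX1, a non-coding RNA of the complex, shared 392 bp with that of ec, an eye development gene, on X from 3857230 to 3857621, or 7.17% of the roX1 unit. That of msl-3, the chromodomain subunit, shared 85 bp with form3, a formin gene, on 3L. The units of both RNAi targets, msl-1 and mof, were in no pair, nor were msl-2, mle and roX2. In the NSL complex, which also contains MOF, 1 of 6 (16.7%) was in a pair: dgt1 met Cad99C, a cadherin gene, by 5 bp. Among 5 partners of the MSL complex, 1 was in a pair: Clamp, whose zinc finger protein binds MSL recruitment sites, shared 502 bp with a unit that ends with CG42748.

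Of 13 genes of pausing and elongation, 4 (30.8%) were in pairs, beside 18.8% of all units and 22.0% of coding units. Nelf-E, a subunit gene of the pausing factor NELF, shared 176 bp with CG43078, and TfIIS, which restarts backtracked polymerase, shared 202 bp with CG33679. The elongation factor genes Spt6 and spt4 overlapped CG3566 and the unit of CG33672 by 13 and 7 bp.

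The machinery of 3′ end formation itself was in pairs for 7 of 17 genes (41.2%), beside 18.8% of all units and 22.0% of coding units. Cpsf73, the endonuclease that cleaves the nascent RNA, and CstF64, which binds RNA downstream of the cleavage site, were each other's partner. On 3R, CstF64 (18659618 to 18661126) and Cpsf73 (18661121 to 18663552) shared 6 bp. Cpsf100 shared 5 bp with the splicing factor gene Slu7, and Wdr33, which recognises the polyadenylation signal, shared 31 bp with Xe7. Rat1, the exonuclease that degrades the RNA left after cleavage, shared 334 bp with the cell cycle kinase gene Wee1 on 2L. CG3689, the small subunit of cleavage factor Im, shared 240 bp with the unit of CG3967, and Pabp2, the nuclear poly(A)-binding protein, shared 205 bp with Obp44a. Genes of this list outside pairs included Cpsf160, Fip1, Pcf11 and Sym.

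Of 8 genes of double-stranded RNA and small RNA, 3 (37.5%) were in pairs, beside 18.8% of all units and 22.0% of coding units. AGO2, the Argonaute of the small interfering RNA pathway, shared 317 bp with CG7739 on 3L from 15560726 to 15561042, which was 4.57% of the AGO2 unit and 13.5% of CG7739. The unit of r2d2, the partner protein of Dicer-2, shared 431 bp with cdc14, a phosphatase gene, on 2L from 7801668 to 7802098, or 22.1% of its own length. Dcr-2 itself and Rab4 met by 1 bp on 2R at 17574979. The units of loqs, Hen1, Adar, Dcr-1 and AGO1 were in no pair. Over all 6 lists, 18 of 56 genes (32.1%) were in a pair.

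Families recognised by gene symbol differed widely in their share of units in a pair, beside 18.8% of all units and 22.0% of coding units. A family gene counted as in a pair if its unit was, even where another gene of the unit carried the overlapping end. Mitochondrial ribosomal protein genes (mRpL and mRpS) had 39 of 73 units in a pair (53.4%), each with a partner outside the family, and overlaps of 3 to 874 bp with a median of 50 bp. Of these, mRpL16 faced arm, the fly beta-catenin gene, by 82 bp, mRpS23 faced the polymerase II subunit gene RpII33 by 57 bp, and mRpL15 faced the presenilin gene Psn by 47 bp. The largest was that of mRpS9 with ArgRS-m, an arginine tRNA synthetase gene, with 874 bp. Genes of respiratory complex I and their paralogues (ND) had 15 of 40 units in a pair (37.5%), with a median overlap of 71 bp. Cytoplasmic ribosomal protein genes had 20 of 87 (23.0%), close to the share of coding units, with a median overlap of 15 bp. RpL12 and RpL39 were each other's partner by 8 bp.

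Receptor and cuticle genes stood at the low end, beside 18.8% of all units and 22.0% of coding units. In pairs were 4 of 60 units of odorant receptors (6.67%), 4 of 58 of gustatory receptors (6.90%), 4 of 65 of ionotropic receptors (6.15%) and 1 of 70 of cuticular proteins of the Cpr family (1.43%). The odorant receptor gene Or1a was counted through the unit of CG3777, whose end was that of CG3777. The only Cpr pair joined Cpr47Ea to the odorant receptor gene Or47a by 163 bp. Cytochrome P450 genes had 17 of 83 (20.5%), which lay between the shares of all units and of coding units. Of these, Cyp4g1 was counted through the unit of CG32816, whose end was that of CG32816. Cyp6g1 faced Cyp6g2 by 94 bp and Cyp6a19 faced Cyp6a9 by 397 bp. Whether the shared ends of these related genes are alike in sequence was not tested. Rab GTPase genes had 3 of 28 (10.7%).

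The families differed both in arrangement and in overlap. A tail-to-tail neighbour was present for 76.7% of mitochondrial ribosomal protein units, 60.9% of cytoplasmic ones and 44.3% of Cpr units, beside 50.3% of all units. Among units that had such a neighbour, 69.6%, 37.7% and 3.23% overlapped it, beside 37.3% of all. The median unit was 910 bp long in the mitochondrial, 1333 bp in the cytoplasmic and 1113 bp in the Cpr family. Whether unit length goes with these shares was not tested.

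**Figure D5:**
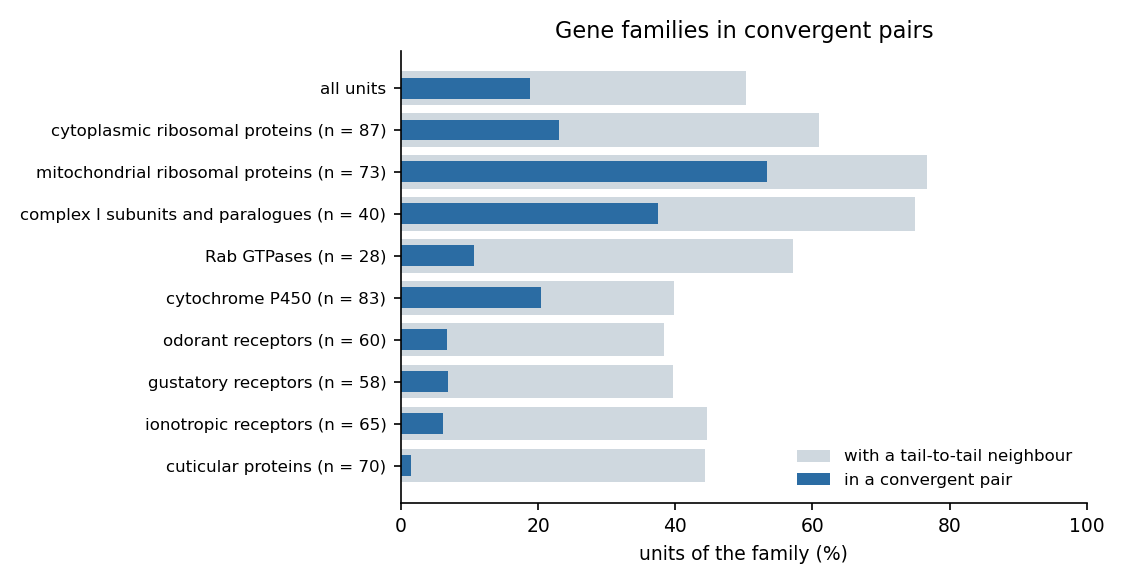
Share of units (%) with a tail-to-tail neighbour (grey) and in a convergent pair (blue), for all units and for 9 families recognised by gene symbol, with the number of units in parentheses. Mitochondrial ribosomal protein genes have the longest blue bar (53.4%) and Cpr genes the shortest (1.43%), beside 18.8% of all units.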

How the data were processed

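The only file analysed was an annotation of transcription units for the whole series. Per the file headers it was written with rtracklayer 1.48.0, with no account of how genes were merged into units. Its deposited values are 1-based start and end positions in bp, with no counts, signal or depth, and every stated length matched its coordinates. Per the submitters' processing notes the build was dm6, and cutadapt 2.8, STAR 2.7.4a and SAMtools 1.20 were used on reads not analysed here.

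Libraries were grouped by title. Genes were matched to the RefSeq gene table (Release 6) by symbol (14056), locus tag (3203) or a synonym held by 1 free gene of the same chromosome (380), which left 59 of 17698 unmatched. A unit was called coding if any of its genes is protein-coding. Among pairs of matched single-gene units, 99.9% had the same overlap in the RefSeq table, which is therefore no independent check. A divergent neighbour starts within 1000 bp upstream on the other strand without overlap.

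The pairs, the gene lists and the families were chosen with earlier results of these data known. Named, but for 1 of the 12 largest overlaps that is not reported here, are the 12 largest overlaps, the 2 largest per chromosome, the 6 first of the smallest, 4 neighbours just outside, the 6 with the largest share of the longer unit, the 4 largest per gene class, all on chromosomes 4 and Y, and every pair with a listed gene. Families and their examples were added afterwards. No sequence of the overlaps or proteins was used here. Pair finding was tested on simulated data (20 layouts of 60 intervals) against sets of bases, with 0 mismatches. Python 3.11.15, pandas 2.3.3, NumPy 2.4.6, SciPy 1.17.1, networkx 3.6.1 and Matplotlib 3.10.9 were used. Alternatives covered the minimum overlap, gene number, unit length, gene spans and the summary.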

Additional observations from a re-analysis of the deposited data

How the results depend on the processing

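No paired analysis was possible because no value of any library was analysed. For want of such values no replicate could be left out, and the planned test between RNAi groups was not run. The number of pairs was 653 with a minimum overlap of 100 bp and 2309 when gaps of at most 100 bp also counted, in place of 1498. It stayed between 1117 and 1594 with a minimum of 25 bp, units that hold 1 gene, units of at least 1000 bp, gene spans of the RefSeq table and, chosen after seeing the data, convergent end genes alone. The median overlap was 97 bp among units of at least 1000 bp, and the mean in place of the median was 464 bp. It was 80 to 83 bp with single genes, coding pairs or gene spans. The share of units in a pair was 8.18% with overlaps of at least 100 bp, 17.1% among units that hold 1 gene and 19.5% among units of at least 1000 bp, in place of 18.8%, and 18.9% on X and the 4 large autosomal arms. On X the first 2 of these settings gave 8.92% and 14.9% in place of 16.8%. The share of pairs with both units coding was 89.0% with overlaps of at least 100 bp and 92.9% with single genes. Apart from the mean, each setting changes which units or overlaps are counted. Annotated ends set every value here, and whether S2 cells use these ends was not tested.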

Other observations

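Pairs were spread unevenly along the arms. In 115 windows of 1000000 bp with at least 50 units on X, 2L, 2R, 3L and 3R, the share of units in a convergent pair had a median of 18.9% and ran from 3.77% to 36.3%. The highest share was on 3R between 24000000 and 24999999, with 62 of 171 units, and the lowest was on 2L between 14000000 and 14999999, with 4 of 106. On X the windows ran from 6.0% to 28.7%. Of all 135 windows, 15 held no pair unit, 6 of them on 2R and 5 on 3R, and they contained few units, 73 and 19 in all on those arms.

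Some pairs were joined into chains where the start of a pair unit overlapped the start of a unit of the next pair. There were 30 such chains, and 1437 pairs were in none. The longest chain had 6 units on 2R from 9863564 to 9891689. CG30010 and CG46338 shared 67 bp at their 3′ ends, CG46338 and CG12744 184 bp at their starts, CG12744 and Sec24AB, a COPII coat gene, 11 bp at their 3′ ends, Sec24AB and CR45467 962 bp at their starts, and CR45467 and CG1513 34 bp at their 3′ ends.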
